A study of Mus musculus with 20 samples.

Results

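A set of 10 fast fibre genes was followed in mouse gastrocnemius, a calf muscle in which most fibres are of the fast type. The genes encode the fast troponin subunits (Tnnt3, Tnni2 and Tnnc2), the fast myosin light chains (Mylpf and Myl1), Z-disc proteins of fast fibres (Actn3 and Myoz1) and the calcium pump, store and buffer of fast fibres (Atp2a1, Casq1 and Pvalb). They were chosen by name, out of 18193 genes with a probe set of their own, and every probe set annotated to 1 of these genes alone was taken. That gave 13 of the 45101 probe sets on the array, of which 12 passed a filter on low values, a mean log2 intensity over all 20 samples of at least 5.65 (an intensity of 50.1). One Tnni2 probe set did not pass and was not tested, with a mean intensity of 13.1 in JA16 samples and 18.5 in saline samples.

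The study set 10 samples from mice given JA16, an antibody that binds the secreted muscle growth inhibitor myostatin, against 10 samples from mice given saline. Both were injected into the peritoneum on days 1 and 3, the antibody at 0.12 and then 0.09 mg per g body weight, and all mice were killed on day 5, which is 4 days after the first injection. The labels give no strain, age or sex, name no genetic change in either group, and do not state that each sample came from a mouse of its own, so the p-values cover only the variation among the arrayed samples, which may include technical variation. Samples are numbered 1 to 10 in each group, and samples with the same number were taken as pairs.

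In a sarcomere, calcium released from the sarcoplasmic reticulum binds troponin C, and the troponin complex then moves tropomyosin off the actin sites that myosin uses. Fast fibres build much of this machinery from gene copies that are used less in slow fibres, and clear calcium quickly with the pump encoded by Atp2a1. Calsequestrin holds calcium inside the reticulum and parvalbumin binds it in the cytosol, while the Z-disc proteins anchor the thin filaments. Myostatin restrains muscle mass in mice, and fast fibres of mice that lack it are enlarged.

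The values were MAS5 intensities, the array software's brightness per probe set, and all 20 arrays had been scaled to 1 trimmed mean. Median intensities of the arrays ran from 38.9 to 77.1. The arrays fell into a set of 12 (replicates 1 to 6) and a set of 8 (replicates 7 to 10) by the ratio of 3' to 5' beta-actin control probe sets, a measure of RNA length, with both groups in each set. Its log2 ratio was 1.33 to 1.84 in the set of 12 and 0.476 to 0.643 in the set of 8, and within pairs it was on average 0.132 lower in JA16 samples, lower in 8 of 10 pairs. All 6 muscle markers were detected. Most marker genes of other cells had a lower mean log2 intensity in JA16 samples without passing the test, 7 of 8 for fibroblasts and tendon and 7 of 8 for endothelial and mural cells, 3 of 3 for fat, 4 of 4 for nerve, 3 of 5 for leukocytes and the 1 blood gene tested. The counts in each direction were the same after quantile normalization, and the part of these cells in the fast fibre values was not tested. Summed intensities of these lists overlapped between the groups, as did the values of every tested probe set. The sums for fat, leukocytes and blood include genes that were not tested. At an unadjusted limma p under 0.05 there were 3 of 4 nerve genes and 0 in each other list of these cells, against 2.22% of all probe sets. With the replicate number as a block, 3 of 4 nerve genes were under that limit, against 15.7% of all probe sets. So were 2 of 8 fibroblast and tendon genes and 2 of 8 endothelial and mural genes, and 0 of the fat, leukocyte and blood genes. Fibroblast and tendon genes summed to 22152 to 55064 in JA16 samples and 31830 to 53589 in saline samples, and endothelial and mural genes to 9979 to 13956 in JA16 samples and 11401 to 14340 in saline samples. Fat genes summed to 4832 to 19970 in JA16 samples and 7298 to 11664 in saline samples. Nerve genes summed to 6230 to 17154 in JA16 samples (median 9382.5) and 8490 to 16903 in saline samples (median 12297). Leukocyte genes summed to 2908 to 11783 in JA16 samples and 2827 to 10475 in saline samples, blood genes to 106 to 496 in JA16 samples and 137 to 406 in saline samples, and no marker was at 0. JA16 replicate 3 stood apart from the other 19 samples in slow fibre genes, as described further on, and its file label carries a suffix that no other sample has. In bulk tissue, fewer cells of a type and less RNA per cell cannot be told apart.

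None of the 12 fast fibre probe sets passed the test between JA16 and saline muscle. Their log2 fold changes (JA16 over saline) ran from 0.018 to 0.20 with a median of 0.060, and the 10 brightest probe sets, 1 per gene, ran from 0.018 for Pvalb to 0.12 for Casq1. All 10 had a higher mean log2 intensity in JA16 samples under the deposited scaling, and 4 of 10 did after quantile normalization, which gives all arrays the same distribution and under which Tnnt3, Tnnc2, Mylpf, Myl1, Atp2a1 and Pvalb were lower in JA16 samples. The values of single genes that follow are under the deposited scaling. The 95% intervals of the 10 genes lay between -0.14 and 0.26 on the log2 scale, folds of 0.907 to 1.20 in intensity. The test was limma's moderated test with Benjamini-Hochberg adjustment over 22517 probe sets, in which 2 probe sets (0.00888%) passed an adjusted p of 0.05. Adjusted p-values of the 12 were all 1.00 by this fit, and at an unadjusted p under 0.05 there were 0 of 12, against 2.22% of all probe sets. With the replicate number as a block, 45 probe sets passed (0.200%) and again none of the 12, at adjusted p-values of 0.258 to 0.888, while 4 of 12 had an unadjusted p under 0.05, against 15.7% of all probe sets. JA16 and saline values overlapped for every one of the 12 probe sets, as they did for all 22517 (0% without overlap).

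**Figure D1:**
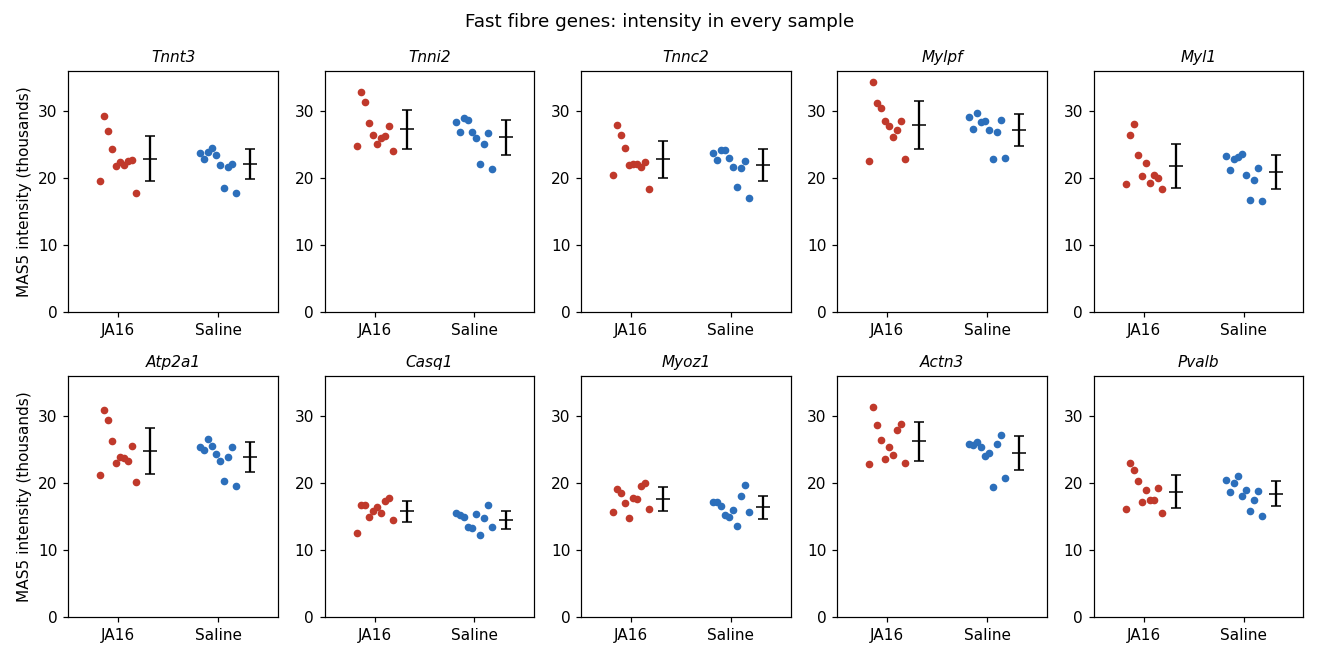
MAS5 intensity of the brightest probe set of each fast fibre gene, with 1 point per sample (10 JA16 in red, 10 saline in blue, from replicate 1 at the left to replicate 10 at the right of each group) and the mean ± SD beside each group. In every panel the JA16 and saline points overlap, and JA16 replicate 2 is the highest JA16 sample in 7 of the 10 panels.

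The troponin subunits differed between groups by less than their spread. Tnnt3, which ties troponin to tropomyosin, had intensities of 17748, 22431 and 29197 (lowest, median and highest) in JA16 samples, against 17735, 22493 and 24416 in saline samples. The lowest values of both groups were nearly equal and the groups differed mainly at the top. Its mean was 22913 ± 3327 in JA16 samples and 22040 ± 2245 in saline samples (SD, n = 10 each), which is 0.050 as a log2 fold change with an SE of 0.081 (adjusted p = 1.00, limma), and in 7 of 10 pairs the JA16 sample was the higher. Tnni2, the inhibitory subunit that blocks the actin sites at rest, had 23996, 26353 and 32781 in JA16 samples, against 21364, 26761 and 28895 in saline samples. Its JA16 median was thus below its saline median while its JA16 mean, 27263 ± 2870, was above the saline mean of 26076 ± 2581, a log2 fold change of 0.064 (SE 0.067). A second, dimmer Tnni2 probe set gave 0.075 (SE 0.065), the same direction, with means of 18989 ± 1467 in JA16 samples and 18075 ± 1940 in saline samples. Tnnc2, the calcium sensor of the complex, had 18405, 22057 and 27864 in JA16 samples, against 17058, 22617 and 24232 in saline samples. Here too the groups overlapped and the JA16 median was the lower of the medians, with a log2 fold change of 0.054 (SE 0.076) and 7 of 10 pairs higher in JA16.

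The fast myosin light chains likewise overlapped between groups. Mylpf, the regulatory light chain bound to the neck of fast myosin, had 22587, 28141 and 34324 in JA16 samples, against 22783, 27809 and 29641 in saline samples. JA16 samples held both the highest and the lowest of the 20 values. The means were 27939 ± 3614 in JA16 samples and 27138 ± 2394 in saline samples, a log2 fold change of 0.036 (SE 0.073), with 6 of 10 pairs higher in JA16. Myl1, the essential light chain, had 18405, 20349 and 28006 in JA16 samples, against 16625, 21352 and 23532 in saline samples. It had the widest spread of the 10 genes, the highest sample being 1.68 times the lowest, and its highest value was in JA16 replicate 3. Its log2 fold change was 0.055 (SE 0.086), with 7 of 10 pairs higher in JA16.

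The Z-disc genes lay among the higher fold changes. Actn3, the alpha-actinin that crosslinks actin filaments in fast fibres, had 22812, 25959 and 31357 in JA16 samples, against 19383, 25542 and 27191 in saline samples. JA16 replicates 2, 3, 8 and 9 were the only samples to exceed the highest saline sample, and the lowest saline sample was replicate 7. Actn3 averaged 26246 ± 2892 in JA16 samples and 24514 ± 2485 in saline samples, a log2 fold change of 0.098 (SE 0.071), with 8 of 10 pairs higher in JA16. Its unadjusted p was 0.0377 with the replicate block and its adjusted p 0.299 in the same limma fit. Myoz1, which binds alpha-actinin and the phosphatase calcineurin at the Z-disc, had 14774, 17763 and 20103 in JA16 samples, against 13699, 16285 and 19732 in saline samples. Replicate 9 was the highest sample of both groups. Its log2 fold change was 0.11 (SE 0.070), and with the block the unadjusted p was 0.0255 and the adjusted p 0.270. The dimmer Myoz1 probe set gave 0.20 (SE 0.12), also higher in 8 of 10 pairs, with means of 2467 ± 489 in JA16 samples and 2143 ± 369 in saline samples and a blocked adjusted p of 0.258.

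Among the calcium genes, Casq1 had the highest fold change of the 10 and Pvalb the lowest. Atp2a1, the pump that returns calcium to the reticulum of fast fibres, had 20257, 23884 and 30972 in JA16 samples, against 19631, 24643 and 26561 in saline samples. Its JA16 median was lower than its saline median although its means, 24788 ± 3389 in JA16 samples and 23928 ± 2281 in saline samples, ran the other way, at a log2 fold change of 0.046 (SE 0.076). Casq1, the main calcium-binding protein of the reticulum in fast fibres, had 12517, 16142 and 17836 in JA16 samples, against 12338, 14956 and 16809 in saline samples. It averaged 15846 ± 1563 in JA16 samples and 14560 ± 1354 in saline samples, a log2 fold change of 0.12 (SE 0.069, 95% interval -0.021 to 0.26), and was higher in JA16 in 9 of 10 pairs, pair 1 being the exception. With the replicate block its unadjusted p was 0.0304 and its limma adjusted p 0.282. Pvalb, the cytosolic calcium buffer of fast fibres, had 15532, 18254 and 22980 in JA16 samples, against 15127, 18803 and 21015 in saline samples. Its means of 18740 ± 2431 in JA16 samples and 18468 ± 1915 in saline samples gave a log2 fold change of 0.018 (SE 0.077), with 5 of 10 pairs higher in JA16, and it was the one gene of the 10 whose sign turned when 1 sample was left out (to -0.016, -0.0088, -0.0065 and -0.014 without JA16 replicate 2, JA16 replicate 3, saline replicate 7 and saline replicate 10).

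**Figure D2:**
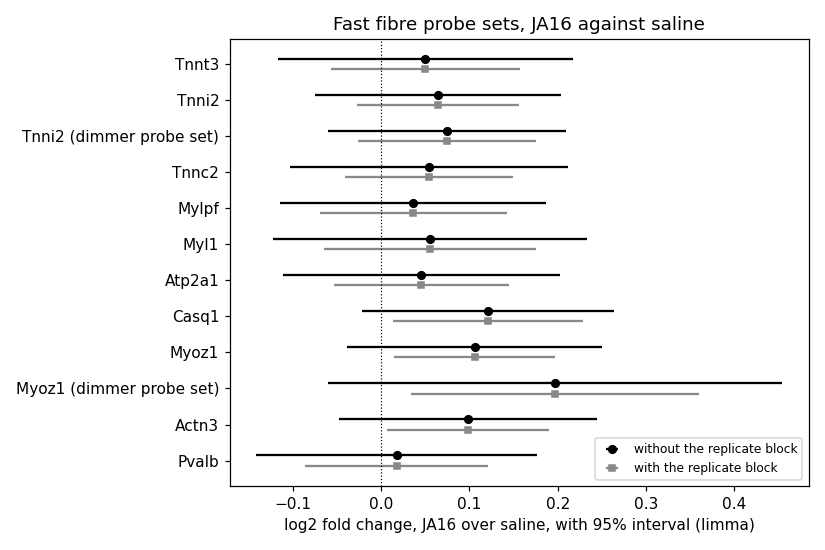
Log2 fold change (JA16 over saline) of the 12 tested fast fibre probe sets with the 95% interval from limma, without the replicate block in black and with it in grey. Under the deposited scaling all 12 estimates lie between 0.018 and 0.20 (after quantile normalization 6 of the 10 genes lie below 0), every interval without the block includes 0, and with the block those of Casq1, Actn3 and both Myoz1 probe sets do not, before adjustment over all probe sets.

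Under the deposited scaling the direction varied from pair to pair and was mostly shared by the genes within a pair. In pair 1 all 10 genes were lower in the JA16 sample, at a median log2 difference of -0.27 (-0.36 to -0.13). In pairs 2, 3 and 7 all 10 were higher in the JA16 sample, at medians of 0.30, 0.14 and 0.24. In pair 5 the JA16 sample was lower for 9 of 10, with Casq1 the exception at 0.24. The remaining 5 pairs had medians of 0.028 to 0.080 with 7 to 9 genes higher in JA16. Of all 22517 probe sets, 9.42% were higher in JA16 in at least 8 of 10 pairs. Of the 12 fast fibre probe sets 4 were, those of Casq1 and Actn3 and both of Myoz1. This share was not computed for other genes as bright. Of 120 such genes, 93.3% had a higher mean log2 intensity in JA16 samples under this scaling, so an excess over all probe sets cannot be read from it.

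**Figure D3:**
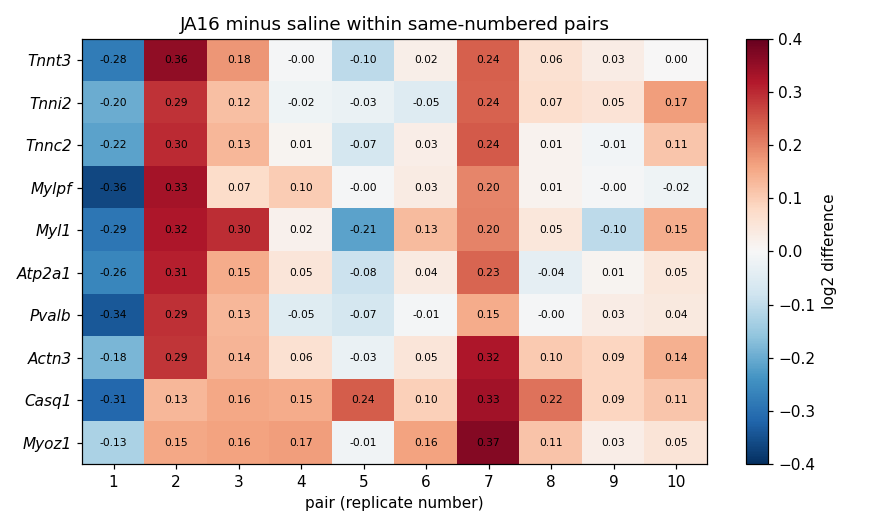
Log2 intensity in the JA16 sample minus that in the saline sample of the same number, for each of the 10 fast fibre genes (rows) in each of the 10 pairs (columns). Columns 2, 3 and 7 are positive for all 10 genes and column 1 is negative for all 10, while column 5 is negative for every gene except Casq1.

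The spread of the fast fibre probe sets was near that of other probe sets as bright. The SD of log2 intensity within groups had a median of 0.167 over the 10 genes, against 0.176 over the 120 other genes at least as bright as the dimmest of the 10, a group formed after the values were seen, and 0.492 over all tested probe sets. The highest of the 20 samples was 1.45 to 1.68 times the lowest for the 10. The dimmer Myoz1 probe set varied more, with an SD of 0.261 and a highest sample 1.98 times the lowest, against 0.148 and 1.47 times for the brighter one. All 10 are bright probe sets, a property of the probes as well as of the transcripts, with mean intensities of 15846 to 27939 in JA16 samples and 14560 to 27138 in saline samples. Over all tested probe sets 42.3% had a higher mean log2 intensity in JA16 samples and the median log2 fold change was -0.036. Among the 120 other bright genes, 112 (93.3%) had a higher mean log2 intensity in JA16 samples and the median log2 fold change was 0.065, close to the 0.054 of the 10 genes. After quantile normalization 54 of these 120 (45%) and 4 of the 10 fast fibre genes, Tnni2, Casq1, Myoz1 and Actn3, were higher in JA16 samples, and the median of the 10 was -0.0084 (-0.053 to 0.048). With each array centred on its median, all 10 were higher at a median of 0.12, while the median of all tested probe sets was 0.034.

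Leaving out single samples moved the log2 fold changes of all but Casq1 and Myoz1 by more than 1.5 times, with no call in any case. With 1 sample left out, the log2 fold change of Mylpf ran from 0.0021 (without JA16 replicate 2) to 0.069, that of Tnnt3 from 0.0095 and that of Atp2a1 from 0.0085 (both without JA16 replicate 2) to 0.089 and 0.077, and that of Myl1 from 0.013 (without JA16 replicate 3) to 0.081. Tnnc2 ran from 0.014 and Tnni2 from 0.033 (both without saline replicate 10) to 0.087 and 0.084. Casq1, Myoz1 and Actn3 were lowest without saline replicate 7, with ranges of 0.095 to 0.16, 0.078 to 0.14 and 0.061 to 0.12.

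Within the set of 12 arrays the median of the 10 log2 fold changes was 0.032, with 9 of 10 above 0, and within the set of 8 arrays it was 0.086, with 10 of 10 above 0. None of the 12 passed in either set. With the beta-actin ratio added to the replicate block the median was 0.12, and no fast fibre probe set passed. The part of the beta-actin ratio in these differences was not tested beyond that fit.

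Under the deposited scaling the 10 genes moved together from sample to sample. Over the 45 pairs of genes and all 20 samples, Pearson's r of log2 intensity had a median of 0.859 (0.378 to 0.985). By permutation with 100000 resamples and Benjamini-Hochberg adjustment over the 45 pairs, 41 pairs had an adjusted p under 0.05 for r and 33 for Spearman's rho, whose median was 0.809. The smallest p the permutations could give, 1e-05, was reached for r in 26 pairs. Same-numbered samples are not fully independent, so these p-values may be too small. The median r was 0.859 among JA16 samples alone and 0.901 among saline samples alone, 0.862 within the set of 12 arrays and 0.922 within the set of 8, and 0.747 without the 2 highest and 2 lowest samples of the genes' mean. Most pairs of genes on the array were not related in this way, the median r over all 11200 tested genes being -0.0028 with 1.62% of pairs at or above 0.859. Among the 120 other genes as bright, the median r was 0.693 and 24.9% of pairs were at or above 0.859. After quantile normalization the median r among the 10 fast fibre genes was 0.058 (-0.71 to 0.76), so the common movement held under the deposited scaling (and with centred medians, 0.969) and not under that one. Quantile normalization gives every array the same highest values. It thus takes out, by construction, much of any movement shared by the brightest probe sets, and the r it leaves among them is shaped by this.

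A split among the 10 was seen in these values and is described without a test. Tnnt3, Tnni2, Tnnc2, Mylpf, Myl1, Atp2a1 and Pvalb, that is the troponins, light chains, pump and buffer, correlated with one another at r of 0.890 to 0.985 (rho 0.842 to 0.965), and at 0.863 to 0.985 once the 2 samples farthest from the median were left out. The closest pair was Tnnt3 and Tnnc2. Casq1 and Myoz1 correlated with each other at 0.845 (rho 0.808, and 0.823 without the 2 farthest samples) and with those 7 genes at 0.378 to 0.633 (rho 0.254 to 0.504, and 0.228 to 0.564 without the 2 farthest samples). Actn3 lay between, at 0.768 to 0.878 with the 7 and 0.803 to 0.824 with Casq1 and Myoz1. In the set of 8 arrays Casq1 and Myoz1 correlated with the 7 at 0.825 to 0.935, and in the set of 12 at 0.450 to 0.722. After quantile normalization, with the limit given above, Casq1 and Myoz1 correlated with each other at 0.765 and with Actn3 at 0.402 to 0.614. Their r with the 7 was then -0.63 to 0.0012, that of Actn3 with the 7 was -0.71 to -0.42, and that among the 7 was -0.26 to 0.69. Casq1, Myoz1 and Actn3 are the genes with the highest fold changes of the 10, a measure taken from the same values.

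**Figure D4:**
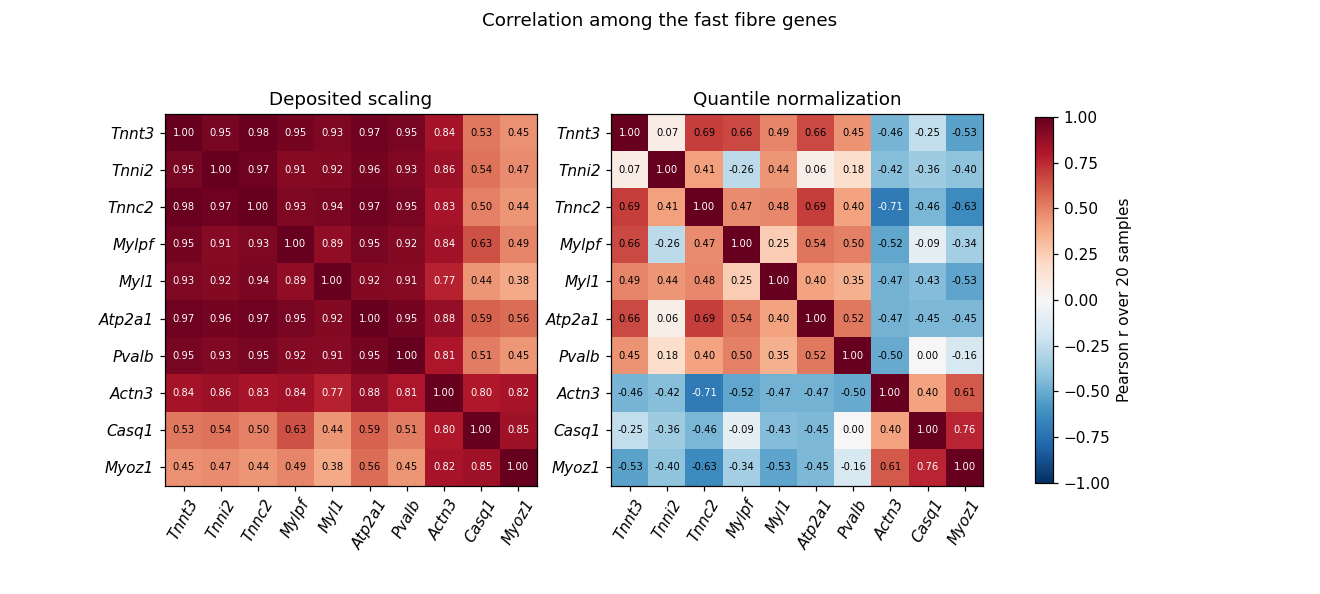
Pearson's r between the log2 intensities of the 10 fast fibre genes over 20 samples, with the deposited scaling at the left and after quantile normalization at the right. At the left, r runs from 0.38 to 0.98 and is highest among the first 7 genes. At the right it runs from -0.71 to 0.76, and Actn3, Casq1 and Myoz1 have positive r with one another.

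Promoter sequence is shown since muscle promoters are known to be bound by the MyoD family at E-boxes and by MEF2 factors. Whether it bears on the common movement of these genes under the deposited scaling was not tested. For 6 of the 10 genes RefSeq's table (GRCm38.p6) gave a promoter, and the 250 bases before the listed start are printed 5′ to 3′ on the gene's strand. Capitals mark matches to the E-box, CANNTG, or to the MEF2 motif, both searched on both strands.
Tnnc2, chr2:164779735-164779984, minus strand: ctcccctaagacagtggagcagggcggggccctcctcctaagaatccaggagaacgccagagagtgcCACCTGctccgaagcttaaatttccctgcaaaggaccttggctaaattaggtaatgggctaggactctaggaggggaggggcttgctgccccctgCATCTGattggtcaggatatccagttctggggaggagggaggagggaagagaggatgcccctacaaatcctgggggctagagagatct
Mylpf, chr7:127211358-127211607, plus strand: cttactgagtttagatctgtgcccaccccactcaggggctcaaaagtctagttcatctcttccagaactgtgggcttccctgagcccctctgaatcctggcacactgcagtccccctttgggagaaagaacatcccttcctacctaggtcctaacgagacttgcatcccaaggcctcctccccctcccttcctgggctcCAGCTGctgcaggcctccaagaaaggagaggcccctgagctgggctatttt
Myl1, chr1:66945057-66945306, minus strand: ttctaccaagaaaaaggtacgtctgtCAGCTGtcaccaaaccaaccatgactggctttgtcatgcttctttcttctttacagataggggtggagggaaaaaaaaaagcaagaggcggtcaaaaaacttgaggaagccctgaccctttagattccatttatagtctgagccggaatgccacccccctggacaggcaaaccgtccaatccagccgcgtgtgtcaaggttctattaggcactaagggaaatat
Atp2a1, chr7:126463074-126463323, minus strand: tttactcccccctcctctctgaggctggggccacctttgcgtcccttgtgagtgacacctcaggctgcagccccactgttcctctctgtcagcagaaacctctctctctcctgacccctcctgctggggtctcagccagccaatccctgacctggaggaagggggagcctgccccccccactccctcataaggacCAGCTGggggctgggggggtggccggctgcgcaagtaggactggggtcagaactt
Casq1, chr1:172219896-172220145, minus strand: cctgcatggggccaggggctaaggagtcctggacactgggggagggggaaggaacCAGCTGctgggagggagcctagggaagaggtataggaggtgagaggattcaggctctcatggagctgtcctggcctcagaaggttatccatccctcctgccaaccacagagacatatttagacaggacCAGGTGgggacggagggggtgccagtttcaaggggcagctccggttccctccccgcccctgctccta
Pvalb, chr15:78206401-78206650, minus strand: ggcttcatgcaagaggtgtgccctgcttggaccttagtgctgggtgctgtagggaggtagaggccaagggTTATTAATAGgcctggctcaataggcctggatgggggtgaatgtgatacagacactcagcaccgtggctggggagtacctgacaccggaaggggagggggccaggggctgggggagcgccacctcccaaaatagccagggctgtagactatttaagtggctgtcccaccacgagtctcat
An E-box stood in 5 of the 6 windows, in all but that of Pvalb, against 66.2% of 32851 promoter windows of the same length. A MEF2 match stood in 1 of the 6, that of Pvalb, between 180 and 171 bases before the more upstream of its 2 listed starts, against 2.92% of all windows. In Mylpf and Atp2a1 the E-box lay close to the start, at 51 to 46 and 55 to 50 bases before it. CATTCC, the MCAT motif, and TATAAA were also searched on both strands. Each was found in 1 of the 6 windows, against 12.6% and 12.4% of all windows. Both were in the window of Myl1 and on the strand opposite to the printed one, where they read ggaatg and tttata. No match overlapped another. Of the slow fibre or cardiac counterparts of these genes, 8 had a listed promoter. An E-box stood in 8 of these 8 windows, a MEF2 match in 2, CATTCC in 2 and TATAAA in 1. The matches are thus not particular to the fast fibre genes. They are letters in a window and do not show binding. Tnnt3, Tnni2, Myoz1 and Actn3 are named only. Tnni2 and Tnnt3 are neighbours on chromosome 7 in the RefSeq table, with 1 protein-coding gene, Lsp1, between them. Under the deposited scaling their r over the 20 samples was 0.951, near the median of 0.949 among the 7 troponin, light chain, pump and buffer genes. After quantile normalization it was 0.071. The part of their position in these values was not tested.

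The 5 genes outside the 10 whose levels followed them most closely, by median r with the 10 over the 20 samples among 11190 genes, were also genes of bright probe sets. Acta1, skeletal muscle actin, was first at 0.954, then Tuba4a, an alpha-tubulin, at 0.931, Slc25a4, the mitochondrial ADP/ATP carrier of muscle, at 0.930, Ywhae, a 14-3-3 protein, at 0.920, and Vdac1, a channel of the outer mitochondrial membrane, at 0.919. Their log2 fold changes were 0.039 to 0.091, with those of all but Tuba4a below 0 after quantile normalization, and none passed. The mean of the 10 fast fibre genes, as a deviation from each gene's mean over 20 samples, was highest in JA16 replicates 2 and 3 (0.30 and 0.24 on the log2 scale) and lowest in saline replicates 7 and 10 (both -0.28). Of 3 relations of this mean computed across samples, that with the array's median log2 intensity had r = -0.53 (permutation p = 0.017, adjusted 0.035) and rho = -0.46 (p = 0.042, adjusted 0.063). Without the 2 samples farthest from the median its r was -0.43, and it was 0.039 in the set of 12 arrays and -0.75 in the set of 8, so it did not hold within the larger set. The relation with the beta-actin ratio had r = 0.504 (permutation p = 0.023, adjusted 0.035) and rho = 0.471 (p = 0.037, adjusted 0.063), had r = 0.348 without the 2 farthest samples, and was 0.425 and 0.201 within the sets of 12 and 8. The third, with the mean of the slow fibre counterparts, had r = -0.17 (permutation p = 0.43, adjusted 0.43) and rho = -0.0030 (p = 0.99, adjusted 0.99). Its r was 0.11 without JA16 replicates 2 and 3, -0.33 in the set of 12 and 0.10 in the set of 8. Without JA16 replicate 3 alone its r was 0.384, and it was -0.27 among JA16 samples and 0.44 among saline samples.

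A slow fibre or cardiac counterpart exists for 9 of the 10 genes, Pvalb being the exception. None of the 9 passed the test with or without the replicate block, and 8 of 9 had a lower mean log2 intensity in JA16 samples, at a median log2 fold change of -0.46 (9 of 9 after quantile normalization). Their median fold change rested in large part on JA16 replicate 3, where 6 of the 9 stood far below the rest of the group. Casq2 did not, at 1009.5 against 1014.7 in the lowest of the other 19 samples. Without JA16 replicate 3, Atp2a2, Tnnt1 and Tnni1 were still at -0.29, -0.28 and -0.28. Tnnt1, the slow troponin T, had an intensity of 115 in JA16 replicate 3, against 1940 in the next lowest JA16 sample and 3735 in the lowest saline sample. Across the 9 genes the median of the other 19 samples was 2.13 to 46.8 times the value in that sample. Without it the median log2 fold change of the 9 was -0.13, 4 of 9 were above 0 and none passed, while the 10 fast fibre genes had a median of 0.025 with 9 of 10 above 0. In the same sample the fast fibre genes were high, at a mean deviation of 0.24, second to JA16 replicate 2, in which the slow counterparts were high too. Of 9 correlations between a fast gene and its counterpart over 20 samples, r ran from -0.30 to 0.32 and rho from -0.26 to 0.40, and none passed after adjustment (permutation adjusted p of 0.50 to 0.90 for r and 0.67 to 0.96 for rho). Without the 2 farthest samples r ran from -0.59 to 0.61, within the set of 12 from -0.50 to 0.014, within the set of 8 from -0.68 to 0.78, and without JA16 replicate 3 from -0.20 to 0.72.

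**Figure D5:**
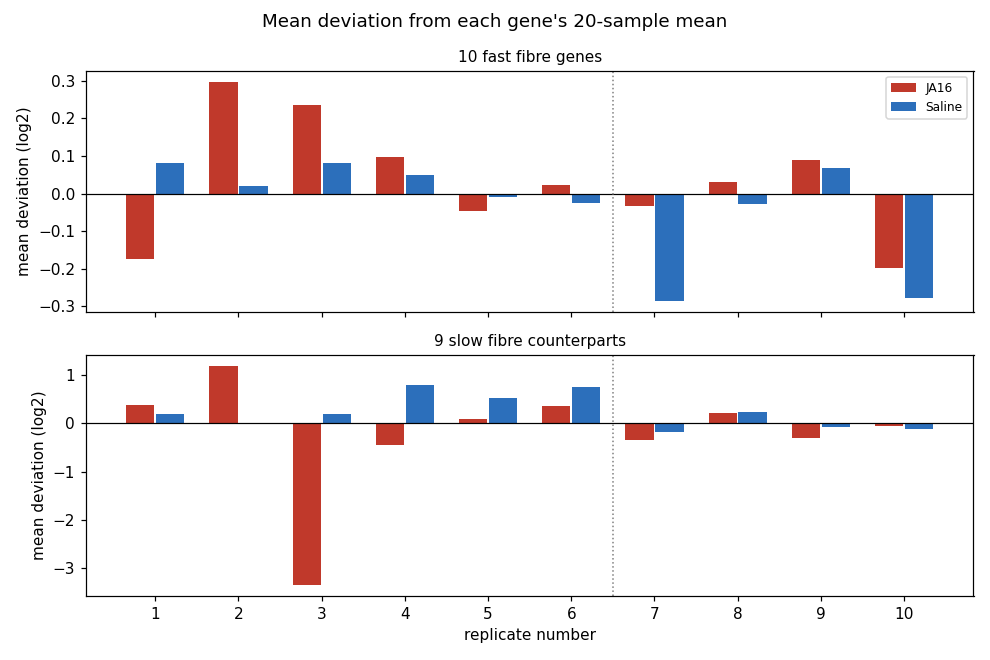
Mean deviation in log2 intensity from each gene's 20-sample mean, for the 10 fast fibre genes (top) and their 9 slow counterparts (bottom), by replicate number, JA16 in red and saline in blue, with a dotted line between the arrays of replicates 1 to 6 and those of 7 to 10. The 2 panels have different scales; JA16 replicate 3 is far below all other samples in the slow panel, and JA16 replicates 2 and 3 are highest in the fast panel.

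The other genes of the fast fibre, the sarcomere and calcium handling gave no call either, in limma with or without the replicate block. Of 12 other genes enriched in fast fibres, 9 had a higher mean log2 intensity in JA16 samples and 3 a lower one, at a median log2 fold change of 0.075, against -0.036 over all tested probe sets, and after quantile normalization 6 were higher and 6 lower. At the ends of that list, Gpd1, the cytosolic glycerol-3-phosphate dehydrogenase, was at 0.27 (SE 0.15) and Ampd1, muscle AMP deaminase, at 0.11 (SE 0.070), and Mylk2, the kinase that phosphorylates the light chain Mylpf, was at -0.30 (SE 0.22) and Myh2, the fast IIa myosin, at -0.29 (SE 0.29). Of 15 other tested genes of the sarcomere (16 listed), 12 were higher and 3 lower, at a median of 0.058. After quantile normalization 6 of them were higher and 9 lower. The capping protein gene Capzb was at 0.20 (SE 0.11), higher in all 10 pairs with a blocked adjusted p of 0.162, and the leiomodin genes Lmod3 and Lmod2 were at 0.17 (SE 0.14) and -0.64 (SE 0.30), with Mybpc1, slow myosin-binding protein C, at -0.11 (SE 0.14). Of 18 tested calcium genes (21 listed), 13 were higher and 5 lower, at a median of 0.054, and after quantile normalization 11 were higher and 7 lower. Cacnb1, a calcium channel subunit, was at 0.33 (SE 0.33) and Jph2, which joins the reticulum to the surface membrane, at 0.17 (SE 0.10). Pln, the inhibitor of the slow fibre calcium pump, was at -0.66 (SE 0.28), with means of 76.5 ± 22.5 in JA16 samples and 132 ± 75 in saline samples, and Atp2b1, a calcium pump of the surface membrane, was at -0.25 (SE 0.30). With 1 sample left out, Lmod2 ran from -0.73 to -0.35 (without JA16 replicate 3), Lmod3 from 0.088 (without saline replicate 8) to 0.22, Cacnb1 from 0.17 (without JA16 replicate 8) to 0.46 and Atp2b1 from -0.38 to -0.13 (without JA16 replicate 8), and Myh2 and Mybpc1 were at 0.013 and -0.0052 without JA16 replicate 3.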

How the data were processed

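RNA from gastrocnemius muscle of 10 JA16 and 10 saline samples was hybridised to Affymetrix mouse arrays. The deposited values are linear intensities per probe set, made with MAS5 per the submitters' processing notes, with no version given there. The deposited intensities of all arrays have 1 trimmed mean (500 with 2% left out at each end). From these deposited intensities, 5 values at or below 0 were set to 0.1 and log2 was taken. Probe sets with a mean log2 intensity at or above the median (5.65) were kept, 22517 in all. Of 34945 probe sets with 1 annotated gene, 34741 matched a RefSeq gene ID (GRCm38.p6); 932 had several genes and 9160 none. The array table names no genome build.

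Groups were compared with limma 3.58.1 (lmFit, eBayes with trend) in R 4.3.3, JA16 minus saline, without a block, with Benjamini-Hochberg adjustment and a threshold of 0.05. Same-numbered samples deviated together over genes (r of 0.449 to 0.783 in 10 of 10 pairs, median of differently numbered ones -0.13). Of the 90 differently numbered ones, 29 were above 0.1 and the highest was 0.728. The best match had the same number for 6 of 10 saline and 5 of 10 JA16 samples. Same-numbered samples also share an array set, so this check cannot tell pairing from array set. The numbers were taken as pairs on this limited ground, and the replicate block is given as an alternative. Within pairs the saline sample always has the lower array number, so array order and treatment cannot be told apart. The 2 array sets were split at a beta-actin log2 ratio of 1. The number of arrays limits the precision.

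The genes named are the 10 fast fibre genes, their 9 slow counterparts, the 2 highest and 2 lowest fold changes of each other fast, sarcomere and calcium list, and the 5 genes with the highest median r; marker lists are given as counts. A gene's brightest probe set stands for it. The genes and lists were chosen with earlier results of these data known. Correlations used scipy 1.17.1, tables pandas 2.3.3 and numpy 2.4.6, figures matplotlib 3.10.9. The limma step was tested on simulated data. No arrays were duplicates (r of 0.880 to 0.937).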

Additional observations from a re-analysis of the deposited data

Results flagged for a closer look

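Of 42 groups of 10 samples (12 fast fibre and 9 counterpart probe sets, each in JA16 and in saline samples), 6 held a value standing far below the rest, and all 6 were slow fibre counterparts in JA16 replicate 3. Chance flags about 1 in 20 groups, and genes measured in 1 sample are not independent. The intensities there were 114.9 for Tnnt1, 47.9 for Tnni1, 585.7 for Tnnc1, 1209.7 for Myl2, 989.6 for Myl3 and 339.3 for Myoz2. The lowest of the other 19 samples had 1940 for Tnnt1, 608 for Tnni1, 4685 for Tnnc1, 7413 for Myl2, 12620 for Myl3 and 5319 for Myoz2. No fast fibre probe set had such a value in either group.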

How the results depend on the processing

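No fast fibre probe set passed the threshold under any alternative run. The count over all probe sets was 2; it was 45 with the replicate block, 41 with quantile normalization and the replicate block, 4 with 1 probe set per gene, 9 with the array set as block, and 0 with the block within either array set (2158 and 1504 at an unadjusted limma p under 0.05). It was 2 to 5 with 1 sample left out and 7 to 52 with the block and 1 pair left out. Of 501 recomputed fast fibre fold changes 18 turned sign, and of 1088 of the other named genes 42 did; no call changed, also not with the replicate block. Quantile normalization, with or without the replicate block, gave log2 fold changes of -0.0121 for Tnnt3, -0.0124 for Tnnc2, -0.0435 for Mylpf, -0.00472 for Myl1, -0.0348 for Atp2a1, -0.0530 for Pvalb, -0.0548 for Actn2, -0.0192 for Acta1, -0.0201 for Slc25a4, -0.00328 for Ywhae and -0.0250 for Vdac1. Within the set of 12 arrays Pvalb was at -0.00614 and Actn2 at -0.117. Within the set of 8, Myl3 was at 0.0270, Myoz2 at 0.155, Myh2 at 0.106 and Mybpc1 at 0.00784. With the beta-actin ratio and the block Casq2 was at 0.0681. Leaving out 1 sample gave -0.0162 to 0.0466 for Pvalb, -0.545 to 0.00708 for Myl3, -0.251 to 0.0447 for Casq2, -0.566 to 0.0132 for Myoz2, -0.0886 to 0.123 for Actn2, -0.387 to 0.0135 for Myh2 and -0.179 to -0.00522 for Mybpc1. Leaving out 1 pair, with the block, gave -0.0129 to 0.0573 for Pvalb, -0.560 to 0.00641 for Myl3, -0.252 to 0.0589 for Casq2, -0.583 to 0.0156 for Myoz2, -0.0598 to 0.144 for Actn2, -0.377 to 0.0505 for Myh2 and -0.161 to 0.0398 for Mybpc1. The median r among the fast fibre genes was 0.0584 after quantile normalization, against 0.859, and 0.830 to 0.884 with 1 sample left out. The alternatives that use array sets alone, groups alone or no extreme samples were chosen after seeing the data. The cause of these shifts was not tested. The intervals given are for intensities and reflect the spread of 10 samples a group. Whether intensities as bright as those of the fast fibre genes rise in proportion to transcript amount was not tested, so the intervals do not bound transcript changes.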
